A study of Homo sapiens with 10 samples.

Results

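The BCL2 family decides whether a cell commits to death through its mitochondria, and 10 of its genes were followed here in a kidney cancer line after knockdown of ZHX2 or of p65: BCL2, BCL2L1, MCL1, BCL2A1, BCL2L11, BBC3, PMAIP1, BAX, BAK1 and BIK. They were taken by name as widely studied members of the family, with earlier results of these data known. All were measured, as 10 of the 22432 genes on the arrays, each by 1 probe set. Cells of 786-O, an established clear cell renal carcinoma line that lacks a working VHL gene, were infected with lentivirus carrying an shRNA and selected with puromycin at 2 ug/ml. A first set of 6 arrays compared a scrambled shRNA with ZHX2 shRNA 44 and ZHX2 shRNA 45, a pair of hairpins against the same gene. A second set of 4 arrays compared a control shRNA with a p65 shRNA, p65 being the NF-kB subunit encoded by RELA.

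Every group had 2 arrays. The labels do not say whether the replicates were separate infections, so the p-values measure the spread between these arrays, which may be technical. They also do not say whether the control shRNA is the scrambled one, and p65 was targeted with 1 labelled construct. The arrays were read on log2 scales that differ between the sets: the array medians were 6.15 to 6.22 in the ZHX2 set and 1.87 to 1.89 in the p65 set. No level is therefore compared between the sets or between genes. The number of arrays limits the precision of every value. In bulk RNA, fewer cells of a kind and less RNA per cell cannot be told apart.

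All 8 renal carcinoma markers checked had a mean signal above the 40th percentile of probe sets in both sets, PAX8 and VIM with scrambled means of 12.33 and 12.18. After ZHX2 knockdown, 3 of the 8 fell and 1 rose with limma, against 6.41% and 11.9% of all genes. CDH6 fell 3.79-fold (-1.92, limma adjusted p = 0.000501), PAX8 (-0.38, 0.0117) and PAX2 (-0.36, 0.0341) fell by less, and KRT18 rose (0.62, 0.0174). The mean of the 8 was 9.74 to 9.84 on the scrambled arrays, 9.66 to 9.67 with hairpin 44 and 9.44 to 9.49 with hairpin 45, without overlap. The 8 did not fall as a set: their median change was -0.012, with 4 above 0 and 4 below, and CDH6 had by far the largest fall. Of the markers of other cell types in the ZHX2 set, 3 of 5 leukocyte, 2 of 4 endothelial and 2 of 3 fibroblast genes lay below that percentile. Their array means moved by little between groups for leukocytes (5.11 to 5.23) and endothelium (5.51 to 5.65), while the fibroblast mean was 5.30 to 5.35 on the scrambled arrays and 4.91 to 5.12 on the hairpin arrays, LUM being the marker that fell. The part of the renal and other markers in the results below was not tested.

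Members of the family act against each other. BCL2, BCL2L1 (BCL-xL), MCL1 and BCL2A1 are guardians that hold cells alive by binding their partners, the BH3-only proteins BCL2L11 (BIM), BBC3 (PUMA), PMAIP1 (NOXA) and BIK occupy or bypass those guardians, and BAX and BAK1 make the pores that release cytochrome c. NOXA binds mainly MCL1, whereas BIM and PUMA bind all guardians. Several of these genes are known NF-kB targets, BCL2A1 and BCL2L1 among them, and clear cell renal carcinoma is known for resistance to cell death.

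Promoter windows from RefSeq (GRCh38.p14), running from 250 bases before to 50 after the transcription start, were matched for 8 of the 10 genes. Of these, 3 are printed: that of PMAIP1, which rose after ZHX2 knockdown, that of BCL2L11, which fell, and that of BAX, which did not pass the test. The capitals mark matches to a motif searched on both strands, and the motifs were chosen with these letters and the changes in view. A match describes the letters only.
PMAIP1, chr18:59899746-59900045, plus strand: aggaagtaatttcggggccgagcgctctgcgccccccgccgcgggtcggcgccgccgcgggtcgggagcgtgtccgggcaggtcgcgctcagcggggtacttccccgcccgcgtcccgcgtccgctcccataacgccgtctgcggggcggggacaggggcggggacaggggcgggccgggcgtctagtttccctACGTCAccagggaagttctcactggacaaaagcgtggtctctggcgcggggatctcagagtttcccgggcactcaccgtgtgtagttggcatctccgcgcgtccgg
BCL2L11, chr2:111120664-111120963, plus strand: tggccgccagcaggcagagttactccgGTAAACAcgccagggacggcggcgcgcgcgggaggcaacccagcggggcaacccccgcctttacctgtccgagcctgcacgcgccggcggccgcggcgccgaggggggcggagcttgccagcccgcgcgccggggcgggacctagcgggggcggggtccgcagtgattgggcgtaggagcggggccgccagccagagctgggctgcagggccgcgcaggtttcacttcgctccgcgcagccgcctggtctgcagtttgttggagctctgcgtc
BAX, chr19:48954625-48954924, plus strand: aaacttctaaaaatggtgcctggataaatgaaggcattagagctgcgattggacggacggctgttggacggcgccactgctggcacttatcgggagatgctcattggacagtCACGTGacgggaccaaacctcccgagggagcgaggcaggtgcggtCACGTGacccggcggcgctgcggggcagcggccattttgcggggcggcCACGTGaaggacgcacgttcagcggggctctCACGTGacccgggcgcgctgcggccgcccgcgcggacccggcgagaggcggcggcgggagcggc
The PMAIP1 window held the core of the cyclic AMP response element, TGACGT, on its reverse strand, where it reads ACGTCA on the printed one and begins 56 bases before the start. This core is read by CREB and ATF factors and occurred in 7.98% of the 35116 windows. The BCL2L11 window held GTAAACA, a forkhead factor motif, 223 bases before the start, and 3.42% of windows did. The BAX window held 4 copies of the E-box CACGTG, which reads the same on both strands and is bound by MYC, beginning 138, 93, 45 and 14 bases before the start. An E-box occurred in 7.26% of windows, and 5 windows of all 35116 (0.0142%) held at least 4. The BBC3 window held 1 E-box, 232 bases before its start. A motif for NF-kB was in none of the members' windows (5.91% of all windows held it). No printed match overlapped another.

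The hairpins lowered their target. ZHX2 signals were 10.58 and 10.43 on the scrambled pair, 9.35 and 9.38 on the hairpin 44 pair and 8.93 and 9.02 on the hairpin 45 pair. The fall averaged over both hairpins was 1.33 on the log2 scale (a change of -1.33, SE 0.0746, limma adjusted p = 0.00105).

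Averaged over both hairpins, 6 of the 10 genes changed at an adjusted p below 0.05, with limma's test across all 22432 genes: PMAIP1, MCL1, BCL2L1 and BAK1 rose, and BCL2L11 and BCL2 fell. Across all genes 18.3% were called, 11.9% as higher and 6.41% as lower. The median change was 0.071 over the 10 genes and -0.0043 over all genes, on the log2 scale. An unadjusted p below 0.05 was reached by 8 of the 10, against 32.2% of all genes. The hairpin arrays lay wholly above or below both scrambled arrays for 8 of the 10, against 38.3% of all genes. Since the 10 were chosen with earlier results of these data known, these counts describe them and are no test of the family.

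**Figure D1:**
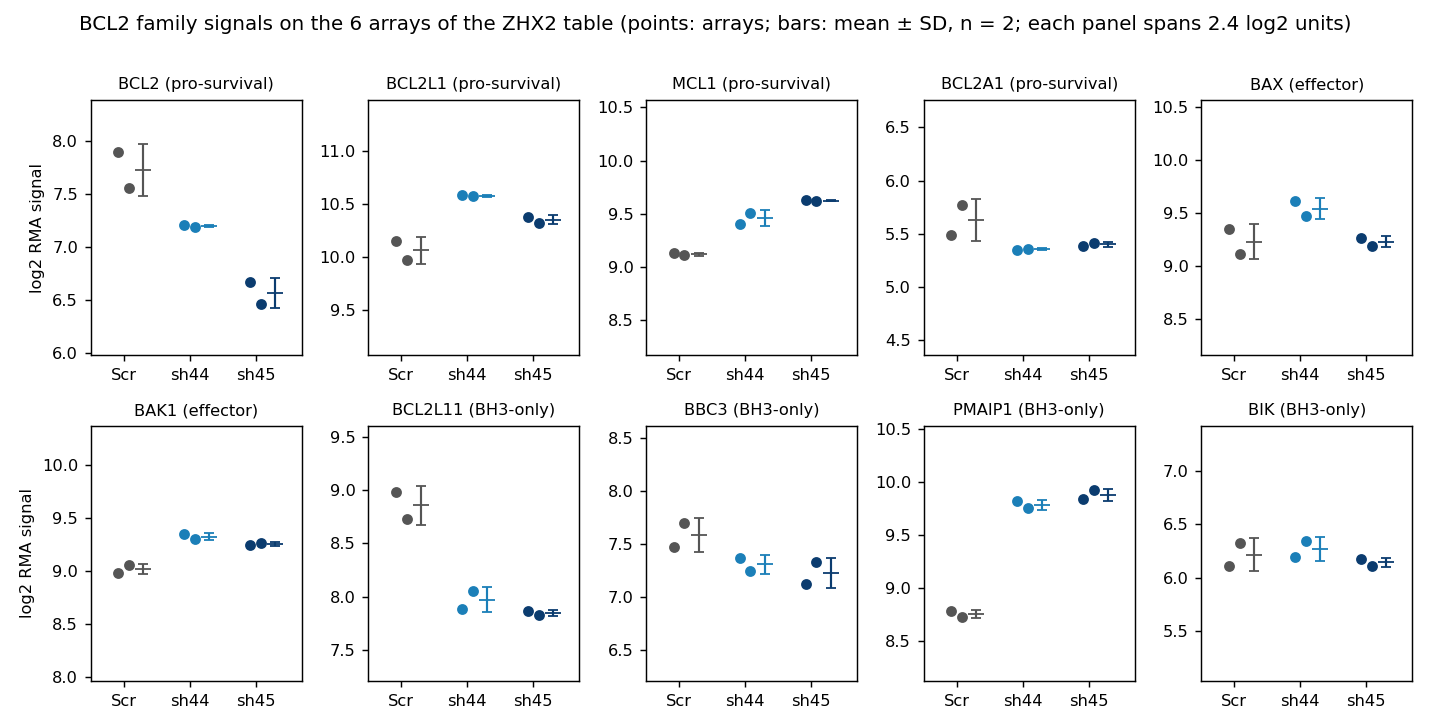
Signal of each of the 10 genes on each of the 6 arrays of the ZHX2 set, on the log2 scale, with a panel for each gene; points are arrays of the scrambled, hairpin 44 and hairpin 45 groups and the bars beside them are the group mean ± SD (n = 2). PMAIP1 lies about 1 log2 unit above the scrambled arrays with either hairpin, and BCL2L11 about as far below.

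Among the BH3-only genes, PMAIP1 rose and BCL2L11 fell, by similar amounts. PMAIP1, whose product NOXA ties up MCL1, had signals of 8.78 and 8.73 on the scrambled pair, 9.82 and 9.75 on the hairpin 44 pair and 9.84 and 9.92 on the hairpin 45 pair. All 4 hairpin arrays lay far above both scrambled arrays. Its change was 1.08 on the log2 scale (SE 0.0663, 95% interval 0.91 to 1.24), a 2.11-fold rise with a limma adjusted p of 0.00133. BCL2L11, whose product BIM binds every guardian, gave 8.99 and 8.73 under the scrambled shRNA, 7.89 and 8.05 under hairpin 44 and 7.86 and 7.82 under hairpin 45. The scrambled arrays were all higher, and the hairpin groups were close to each other. Its change was -0.95 (SE 0.0980, 95% interval -1.19 to -0.71, limma adjusted p = 0.00365), a 1.94-fold fall.

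BBC3, the p53 target that encodes PUMA, had 7.47 and 7.70 on the scrambled pair against 7.37 and 7.25 on the hairpin 44 pair and 7.13 and 7.33 on the hairpin 45 pair. Every hairpin array was lower, but the change of -0.32 (SE 0.102) missed the threshold, with a limma adjusted p of 0.0878. It passed with a variance trend on intensity (0.0329) and without dim probe sets (0.0431). BIK, a BH3-only protein of the endoplasmic reticulum, gave 6.11 and 6.33, then 6.19 and 6.35, then 6.17 and 6.11 in the same order of groups. Its groups overlapped, and the change was -0.011 (95% interval -0.24 to 0.21, limma adjusted p = 0.949).

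Of the guardians, BCL2 fell while MCL1 and BCL2L1 rose. BCL2 had 7.90 and 7.55 on the scrambled pair, 7.20 and 7.19 on the hairpin 44 pair and 6.67 and 6.46 on the hairpin 45 pair. The 3 groups did not overlap, hairpin 45 giving the lowest signals. Its change was -0.84 (SE 0.117, 95% interval -1.13 to -0.55, limma adjusted p = 0.00807), a 1.79-fold fall. MCL1, a short-lived protein that NOXA directs to degradation, had 9.13 and 9.11 on the scrambled pair, 9.40 and 9.51 on the hairpin 44 pair and 9.63 and 9.62 on the hairpin 45 pair. Here too the groups stood apart, in the opposite order. MCL1 rose by 0.42 (SE 0.0657, 95% interval 0.26 to 0.58), 1.34-fold, with a limma adjusted p of 0.0108.

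BCL2L1, which encodes BCL-xL, had 10.15 and 9.97 under the scrambled shRNA, 10.58 and 10.57 under hairpin 44 and 10.38 and 10.32 under hairpin 45. Both hairpin groups were above the scrambled arrays, hairpin 44 by more. The rise averaged 0.40 (SE 0.0763, 95% interval 0.21 to 0.59), 1.32-fold, at a limma adjusted p of 0.0189. BCL2A1 was the one member with a mean signal below the 40th percentile of probe sets, at 5.48 and 5.77 on the scrambled pair, 5.35 and 5.36 on the hairpin 44 pair and 5.38 and 5.42 on the hairpin 45 pair. Its hairpin arrays were lower without overlap, and the change of -0.25 (SE 0.0932) did not pass (limma adjusted p = 0.127), though it did when scrambled replicate 1 was left out (-0.39, limma adjusted p = 0.0361).

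The pore-forming effectors differed little between groups. BAK1 had 8.99 and 9.05 on the scrambled pair, 9.35 and 9.30 on the hairpin 44 pair and 9.24 and 9.27 on the hairpin 45 pair, so all hairpin arrays were higher by a small margin. The rise of 0.27 (SE 0.0634, 95% interval 0.11 to 0.42), 1.21-fold, had a limma adjusted p of 0.0361. BAX had 9.35 and 9.12 under the scrambled shRNA, 9.61 and 9.47 under hairpin 44 and 9.27 and 9.19 under hairpin 45. Only the hairpin 44 arrays stood above the scrambled ones, and the averaged change of 0.15 (SE 0.0926, 95% interval -0.074 to 0.38) did not pass (limma adjusted p = 0.32).

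The calls of PMAIP1, BCL2L11 and BCL2 held under all 14 alternatives run for this comparison, with limma adjusted p-values of at most 0.0200, 0.0214 and 0.0320. The other 3 kept their direction with any array left out: MCL1 rose by 0.40 to 0.45, BCL2L1 by 0.31 to 0.49 and BAK1 by 0.24 to 0.30. MCL1 lost its call without scrambled replicate 2, BCL2L1 without that or any hairpin array, and BAK1 without any of the 6 arrays. Fits with an array left out called fewer of all genes too, so these losses do not show that a rise came from 1 array. BAK1 was also lost with quantile normalization (a rise of 0.17, limma adjusted p = 0.15) or array weights (0.0583). A fit that leaves out an array takes the remaining array of that group to vary like the other groups.

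**Figure D2:**
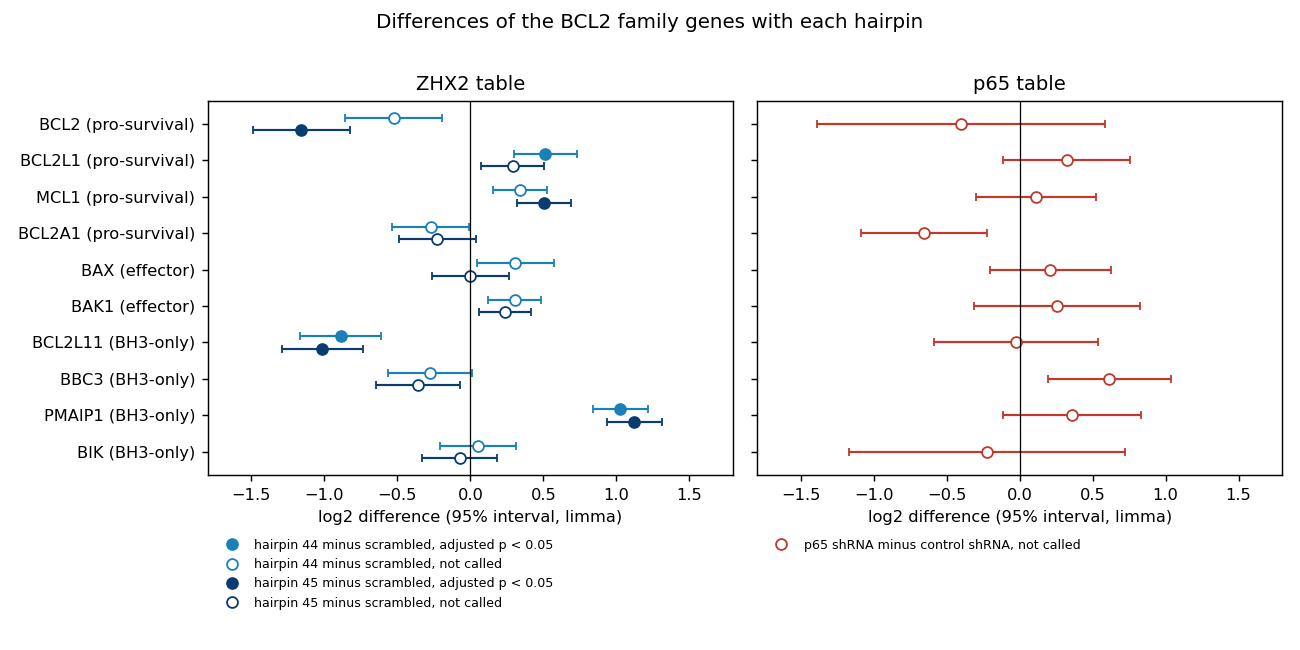
Change of each gene on the log2 scale, with its 95% interval from limma, for hairpin 44 and hairpin 45 against the scrambled shRNA and for the p65 shRNA against its control; filled points were called at an adjusted p below 0.05 and open points were not. PMAIP1 and BCL2L11 have nearly the same change with both hairpins, BCL2 falls further with hairpin 45, and the p65 intervals are wider.

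Taken hairpin by hairpin, 3 members were called with hairpin 44 and 4 with hairpin 45, where limma called 7.65% and 20.1% of all genes. PMAIP1 rose 2.04-fold with hairpin 44 and 2.18-fold with hairpin 45, at limma adjusted p-values of 0.00528 and 0.00153. BCL2L11 changed by -0.89 (SE 0.113) and -1.02 (SE 0.113) on the log2 scale, at 0.0143 and 0.0043. BCL2L1 was called with hairpin 44 alone (0.51, limma adjusted p = 0.0288, against 0.29 and 0.0717 with hairpin 45). BCL2 was called with hairpin 45 (-1.16, a 2.23-fold fall, limma adjusted p = 0.00476) and gave -0.53 with hairpin 44 (0.0746), and MCL1 likewise gave 0.51 (0.00908) and 0.34 (0.0539). With an array left out, the changes with hairpin 44 were 0.996 to 1.06 for PMAIP1, -1.02 to -0.76 for BCL2L11 and 0.42 to 0.60 for BCL2L1. All 3 lost their calls without either hairpin 44 array, and BCL2L11 and BCL2L1 did without scrambled replicate 2. ZHX2 itself also lost its call without either hairpin 44 array, so that loss does not single out these members. With a variance trend on intensity, 7 members were called with each hairpin, where limma called 3940 of all 22432 genes with hairpin 44 and 6251 with hairpin 45.

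The hairpins themselves were then compared. No member differed between them at an adjusted p below 0.05 with limma, against 0.397% of all genes, and 3 did at an unadjusted p below 0.05 (15.1% of all genes). BCL2 was lower with hairpin 45 by -0.63 (SE 0.135, 95% interval -0.97 to -0.30, limma adjusted p = 0.145), BAX by -0.31 (95% interval -0.57 to -0.046, 0.271) and BCL2L1 by -0.22 (95% interval -0.44 to -0.0077, 0.318). With the intensity trend the first and second of these passed, at limma adjusted p-values of 0.0129 and 0.0485. For PMAIP1 the difference was 0.095 (95% interval -0.093 to 0.28) and for BCL2L11 -0.13 (95% interval -0.40 to 0.15). ZHX2 itself changed by -1.14 (SE 0.0862) with hairpin 44 and -1.53 (SE 0.0862) with hairpin 45.

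In the second set, the p65 shRNA lowered RELA from 7.64 and 7.67 on the control arrays to 5.04 and 5.28. This change of -2.50 on the log2 scale (SE 0.178) had a limma adjusted p of 0.0733, and of 0.00132 with a variance trend on intensity. Limma called 0 of the 22432 genes here (0%), 3.86% with the trend, and 14.3% of genes had an unadjusted p below 0.05. None of the 10 members was called in either fit, 2 had an unadjusted p below 0.05 (4 with the trend, where 16.7% of all genes did), and the arrays did not overlap for 6, against 46.0% of all genes. The median change of the members was 0.16, and that of all genes 0.0069.

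BBC3 and BCL2A1 had the largest p65 values. BBC3 gave 4.09 and 4.20 on the control arrays and 4.79 and 4.73 with the p65 shRNA, a difference of 0.61 (SE 0.167, 95% interval 0.19 to 1.03, limma adjusted p = 0.217). The arrays of the groups were well apart, in the direction opposite to that after ZHX2 knockdown, where BBC3 did not pass either. BCL2A1, a guardian that NF-kB is known to induce, gave 2.61 and 2.64 against 1.89 and 2.05, a difference of -0.65 (SE 0.171, 95% interval -1.08 to -0.23, limma adjusted p = 0.205). Its signals with the p65 shRNA were low, near the medians of those arrays (1.88 and 1.89).

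The genes that moved most with ZHX2 did not pass here. PMAIP1 had 6.50 and 6.48 on the control arrays and 7.0 and 6.70 with the p65 shRNA, all higher but unevenly (0.36, 95% interval -0.11 to 0.83, limma adjusted p = 0.462). BCL2L11 had 4.67 and 4.25 against 4.30 and 4.58, groups that overlapped (-0.025, 95% interval -0.59 to 0.54, limma adjusted p = 0.975). BCL2 had control arrays 6.39 and 5.22, which differed from each other by more than from the p65 arrays at 5.40 and 5.39 (-0.40, 95% interval -1.39 to 0.58). The BCL2 interval takes in its change of -0.84 after ZHX2 knockdown, whereas those of PMAIP1 and BCL2L11 end short of 1.08 and -0.95. The sets share no arrays, differ in log2 scale and were not tested against each other. These interval ends therefore do not show that the changes differ between the sets.

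The other guardians and the effectors had higher means with the p65 shRNA but did not pass. BCL2L1 gave 8.50 and 8.69 against 8.93 and 8.91 (0.32, 95% interval -0.11 to 0.76), and MCL1 gave 8.18 and 8.18 against 8.29 and 8.29 (0.11, 95% interval -0.30 to 0.52). BAX gave 6.98 and 6.95 against 7.15 and 7.20 (0.21, 95% interval -0.20 to 0.62). These 3 did not overlap between groups. BAK1 gave 6.05 and 5.74 against 6.36 and 5.95, and BIK gave 2.72 and 3.82 against 3.13 and 2.97, both with overlap and limma adjusted p-values of 0.669 and 0.835.

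**Figure D3:**
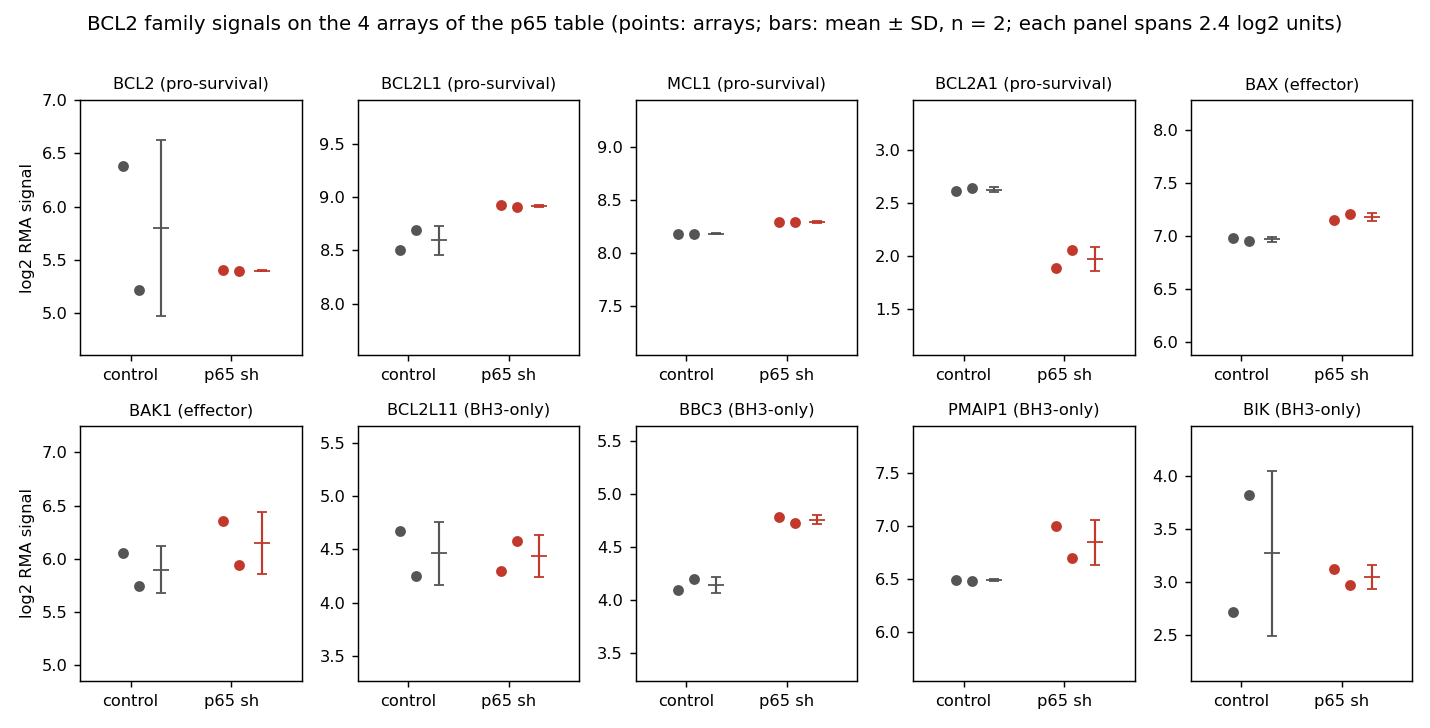
Signal of each of the 10 genes on the 4 arrays of the p65 set, on the log2 scale, with a panel for each gene; points are arrays of the control shRNA and p65 shRNA groups and the bars beside them are the group mean ± SD (n = 2). The BBC3 and BCL2A1 groups stand apart in opposite directions, while the control arrays of BCL2 (6.39 and 5.22) and BIK (2.72 and 3.82) lie far from each other.

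Other genes around the family were counted by list. Of 11 further BCL2 family genes, 0 rose and 3 fell after ZHX2 knockdown, where 11.9% of all genes rose and 6.41% fell. The median change of the list was 0.0047. BMF, a BH3-only gene whose product sits on the cytoskeleton, fell from scrambled signals of 7.53 and 7.72 to 6.99 and 6.93 under hairpin 44 and 6.96 and 6.83 under hairpin 45 (-0.70, SE 0.0845, limma adjusted p = 0.0055), and by -0.49 when the probe sets of the gene were averaged. The others, named for the small count after their values were seen, were the BH3-only gene BAD (-0.36, limma adjusted p = 0.0156) and BCL2L15 (-0.32, limma adjusted p = 0.0498). With single arrays left out, BAD was called only without scrambled replicate 1 (limma adjusted p 0.0505 to 0.0703 without the others), and BCL2L15 only without scrambled replicate 2 (0.104 to 0.137). BCL2L15 was also lost with robust moderation, median centring, quantile normalization and array weights (0.0519 to 0.0921).

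Downstream of the pores, 6 of 13 apoptosome and executioner genes rose and 0 fell, against 11.9% and 6.41% of all genes, with a median change of 0.26. With quantile normalization 5 rose and 1 fell, the caspase CASP9. CYCS, which encodes the cytochrome c that the pores release, had 7.0 and 6.85 on the scrambled pair, 7.69 and 7.43 on the hairpin 44 pair and 7.51 and 7.56 on the hairpin 45 pair (0.62, SE 0.0977, limma adjusted p = 0.0111). The rest, named after their values were seen, were VDAC1, VDAC2 and VDAC3, channels of the outer mitochondrial membrane, the IAP antagonist DIABLO and the nuclease DFFB, with changes from 0.26 to 0.40. No gene of the 13 was called without scrambled replicate 2 (CYCS 0.54, limma adjusted p = 0.07), and with another array left out 2 to 5 of the 13 were. DIABLO was also lost with quantile normalization (limma adjusted p = 0.112) and array weights (0.0758), and DFFB with array weights (0.0541). Among 6 inhibitor of apoptosis genes, BIRC5, the mitotic survivin, rose by 0.55 (SE 0.0827, limma adjusted p = 0.00988) and NAIP fell (-0.38, 0.018), the latter called, with single arrays left out, only without scrambled replicate 2 (limma adjusted p 0.052 to 0.0654 without the others).

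Of 11 death receptor pathway genes, 1 rose and 2 fell, against 18.3% of all genes called in either direction. The ligand TNFSF10 (TRAIL) went from scrambled signals of 12.45 and 12.42 to 11.73 and 11.88 under hairpin 44 and 11.67 and 11.63 under hairpin 45, a change of -0.71 (SE 0.0714, limma adjusted p = 0.00351). Its receptor TNFRSF10A rose (0.36, limma adjusted p = 0.0152), and the caspase-8 inhibitor CFLAR, named after its value was seen, fell (-0.33, 0.0403). With any single array other than scrambled replicate 2 left out, neither of these was called (limma adjusted p 0.0506 to 0.0585 for TNFRSF10A and 0.085 to 0.119 for CFLAR), and CFLAR was also lost with median centring (0.0763) and array weights (0.0577).

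Of 14 transcription factors known to act on family genes, 4 rose and 0 fell, against 11.9% and 6.41% of all genes, with a median of 0.027. MYC rose from 8.17 and 8.08 to 8.96 and 8.90 under hairpin 44 and 9.02 and 9.07 under hairpin 45 (0.86, SE 0.0668, limma adjusted p = 0.0021). The rest, named after their values were seen, were E2F1 (0.75, limma adjusted p = 0.0022), DDIT3 (0.28, 0.0347) and RELA (0.44, 0.0112). DDIT3 lost its call whichever single array was left out (changes of 0.25 to 0.32), and RELA lost its call without scrambled replicate 2 (a change of 0.38). Of 8 genes for turnover and tethering of the proteins, 1 rose and 0 fell, against 11.9% and 6.41% of all genes. It was DYNLL2, the dynein light chain that holds BMF (0.47, limma adjusted p = 0.00895). DYNLL2 lost its call without scrambled replicate 2, where it rose by 0.44.

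With the p65 shRNA none of the genes in these 6 lists, of 11, 13, 6, 11, 14 and 8 measured genes, was called by limma. With a variance trend on intensity 7 were, and the trend called 3.86% of all genes. The 7 included RELA itself. MYC gave 7.17 and 7.39 on the control arrays and 8.46 and 8.25 with the p65 shRNA (1.07, SE 0.135, limma adjusted p = 0.00627 with the trend and 0.116 without). TNFSF10 gave 10.81 and 11.01 against 10.00 and 10.20 (-0.81, 0.00778 with the trend), and BIRC5 7.35 and 7.63 against 5.94 and 6.13 (-1.45, 0.00402 with the trend). DYNLL2 was higher (0.90, limma adjusted p = 0.0422 with the trend), while BCL2L15 (-1.66, 0.0122) and CASP6 (-1.07, 0.025) were lower. Of the 7, MYC, TNFSF10, DYNLL2, BCL2L15 and CASP6 had the sign they had after ZHX2 knockdown, where CASP6 did not pass (-0.33, limma adjusted p = 0.272). BIRC5 and RELA had the opposite one, RELA being the gene that the p65 shRNA targets. The share of all genes with the same sign in both sets was not counted, so these signs are a description.

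**Figure D4:**
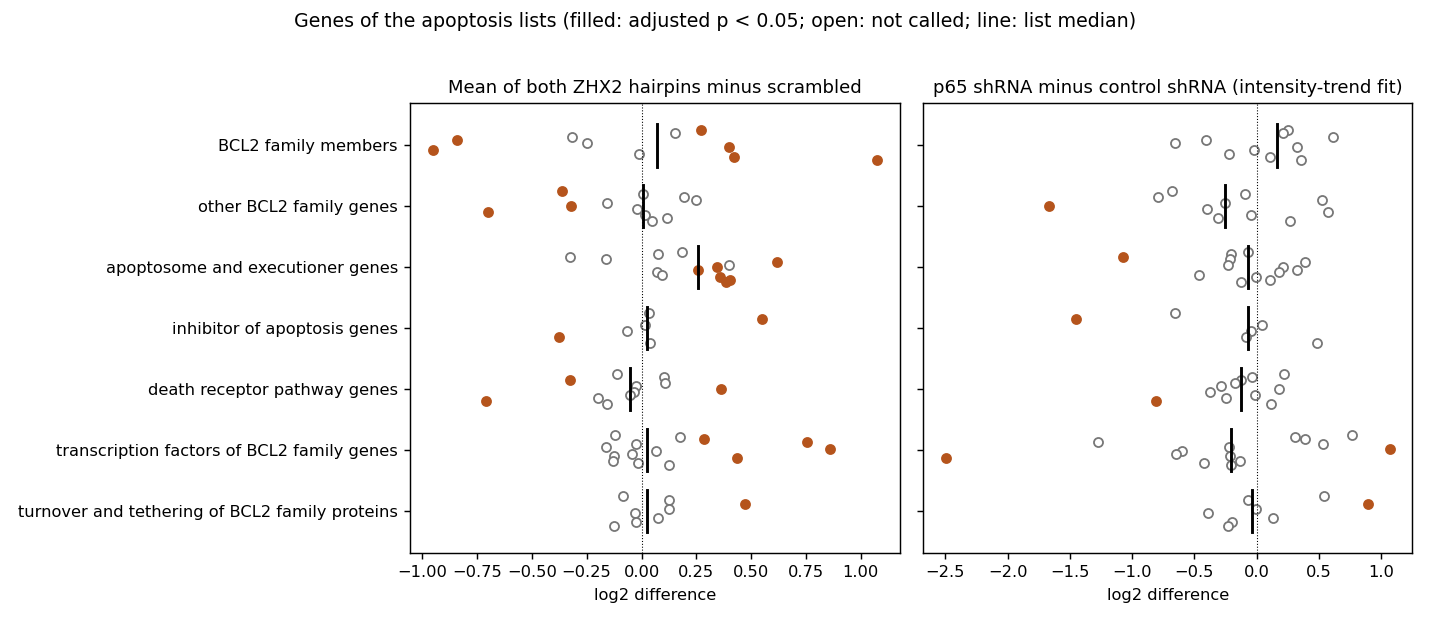
Change on the log2 scale of every measured gene of the member list and of the 6 other lists, after ZHX2 knockdown (mean of both hairpins) and after p65 knockdown (limma with the intensity trend), with filled points for genes called at an adjusted p below 0.05, open points for the rest and a line at each list's median. In the ZHX2 comparison the apoptosome and executioner genes called are all higher, and in the p65 comparison 7 points are filled, none of them among the 10 members.

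Over the 6 arrays of the ZHX2 set, the genes whose signal followed PMAIP1 most closely were LTV1, COPS8 and KARS1, each with a Pearson correlation of 0.999, and those closest to BCL2L11 were PBX4, FBN1 and TMEM91, each with 0.997. These 6 points fall into 3 groups and share the same arrays, so the values are descriptions. A correlation above 0.95 was shared by 1176 genes with PMAIP1 and by 585 with BCL2L11. After ZHX2 knockdown LTV1, COPS8 and KARS1 rose by 0.85, 0.46 and 0.41, and PBX4, FBN1 and TMEM91 changed by -0.33, -0.82 and -0.68.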

How the data were processed

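The authors deposited log2 signals of Affymetrix arrays, normalized with RMA per the submitters' processing notes, as a table of 6 arrays and a table of 4. The genome build is not given in the sources used here. Of 53617 probe sets, 24480 carried 1 gene symbol in the platform annotation, 653 symbols were updated through RefSeq (GRCh38.p14), and each of 22432 genes was taken by its probe set of highest mean. Each table was fitted separately with limma 3.58.1 in R 4.3.3 (lmFit and eBayes), groups as coefficients, with Benjamini-Hochberg adjustment over all genes and a call at 0.05. Each fit was repeated with a variance trend on intensity, with robust moderation, after median centring or quantile normalization, with dim probe sets removed (below the 40th percentile), with probe sets of a gene averaged, with a block for the replicate number, with weights for the arrays, on the pair of groups alone, and without each array in turn.

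On simulated data with known changes of 0.5, 1 and 2 log2, the mean ZHX2 fit recovered 24 of 67, 46 of 67 and 60 of 66 genes, and the p65 fit 0 of 67, 0 of 67 and 0 of 66. With a variance trend on intensity the p65 fit recovered 0 of 67, 0 of 67 and 6 of 66. No other gene was changed in the simulation, whereas limma called 4102 genes in the mean ZHX2 comparison, so these shares need not hold for the data. The members, lists and rules were chosen with earlier results of these data known. The text names all members, the targeted genes, in each list the called gene of smallest p per direction, for p65 those called with the trend, and the 3 genes most correlated with PMAIP1 and with BCL2L11. The other called list genes, and CASP9, fall outside this rule and were named after their values were seen, as were the called cell markers.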

Additional observations from a re-analysis of the deposited data

How the results depend on the processing

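With 2 arrays per group, leaving out an array lowered the number called over all genes in every ZHX2 comparison. Limma with its default settings called 0 of 22432 genes in the p65 set (3216 at an unadjusted p below 0.05). Of the 10 members, the mean ZHX2 comparison called 6, and 3 to 6 with an array left out, with 5 to 7 under the other alternatives. Hairpin 44 called 3, 7 with an intensity trend, 6 without dim probe sets, and 0 to 3 with an array left out. Hairpin 45 called 4, 7 and 7, and 3 to 6. The hairpins against each other called 0, and 2 with the trend. The p65 comparison called 0 under every alternative run. Replicate numbers did not pair the arrays (correlations of -0.026, 0.054 and 0.027 in the ZHX2 set and 0.0096 in the p65 set). With the replicate block 5 members were called in the mean comparison, BAK1 being lost (limma adjusted p = 0.065), 2 with hairpin 44, 4 with hairpin 45 and 0 in the others; BCL2L15 (0.0664), DDIT3 (0.0632), DFFB (0.0582) and DIABLO (0.0818) were lost too.

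Over all genes, the mean comparison called 4102 (64.9% higher, 73.0% with median centring, 53.2% with quantile normalization) and 1788 to 3340 with an array left out. Hairpin 44 called 1716, 3940 with the trend, 3062 without dim probe sets, 820 with the block, 575 with its own groups only, and 3 to 595 with an array left out. Hairpin 45 called 4513 and 1134 to 3974. Against each other the hairpins called 89, 1466 with the trend, 403 without dim probe sets, 11 with the block, 207 with weights, 3 with their groups only and 0 to 4 with an array left out. The p65 comparison called 866 with the trend.

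Changes of sign occurred in values that were not called. BIK in the mean comparison gave 0.031 with median centring, 0.024 with quantile normalization, and -0.12 to 0.098 with an array left out. With an array left out, BIK gave -0.057 to 0.16 for hairpin 44 and -0.18 to 0.035 for hairpin 45. BAX with hairpin 45 gave 0.052 with median centring and -0.12 to 0.12 with an array left out, and BBC3 between hairpins -0.18 to 0.021. With the p65 shRNA, leaving out an array gave -0.99 to 0.18 for BCL2, -0.23 to 0.18 for BCL2L11 (0.0087 with quantile normalization), -0.77 to 0.33 for BIK and -0.19 to 0.010 for ZHX2. The cause was not tested.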
